A study of Mus musculus with 19 samples.

Results

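Tfrc and Cp are 2 of the 1609 genes for which the study deposited expression ratios between cell populations sorted from mouse skin squamous cell carcinomas, and they were chosen by name for their place in iron handling. Tfrc encodes transferrin receptor 1, the surface protein CD71. Cp encodes ceruloplasmin, a copper-containing ferroxidase. The cells came from tumours of strain C57BL/6 in skin, grown as allografts after intradermal injection of 10000 cells. RNA was compared in tumours SCC1 and SCC2 between quiescent cells (CD71lo H2BGFPhi), proliferative cells (CD71hi H2BGFPlo) and double negative cells (CD71lo H2BGFPlo), with 1 library of 100000 sorted cells per population and tumour. H2BGFP is a histone-GFP label that dividing cells dilute, and the sources used here do not name its driver. ATAC-seq, which marks open chromatin, used 50000 cells per library from those populations, from CD71hi H2BGFPhi cells, and from 2 libraries of the Tgfbr2KO tumour SCC3. Smad2/3 binding was mapped in 1 sample of cultured SCC1 cells held at 50 uM calcium and given TGFβ1 at 5 ng/mL for 1 h. Input DNA was sequenced from SCC1 and SCC2 cells held and treated in the same way. Copy number is listed for both tumours in a table from ChIP-seq libraries, matched here to the inputs by tumour name.

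Cells take up iron when transferrin, the iron carrier of plasma, binds CD71 and is drawn into endosomes. There iron is released and reduced before it enters the cytosol, and it then serves ribonucleotide reductase, iron-sulphur proteins and haem. CD71 is widely used as a marker of growing cells, because dividing cells need iron to make DNA. Ceruloplasmin oxidises iron as it leaves the cell through ferroportin, carries most of the copper of plasma, and rises in the blood during inflammation. The liver is its main source.

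The ratios are log2 values computed by the authors, so a positive value stands for a higher level in the population named first and a negative value for a lower one. They carry neither expression levels nor read counts, so their depth is unknown, and with 1 library per population and tumour there is no replicate within a tumour. The agreement or spread of SCC1 and SCC2 is the only measure of error, and no test was run on the ratios of either gene. Tfrc codes for the protein by which the cells were sorted, so its ratios against CD71hi cells describe the sort. Cp was chosen with its ratios known, so these too are a description. In bulk RNA, fewer cells of a type and less RNA per cell cannot be told apart. Epithelial identity could be read only in part. Keratin genes Krt14, Krt5 and Krt18 had reads at mutated sites in the libraries that list them. In SCC1 quiescent and proliferative cells these were 737 and 722 for Krt14, 111 and 124 for Krt5, and 327 and 223 for Krt18. In SCC2, quiescent cells first, they were 14 and 277 for Krt14 and 34 and 399 for Krt18. Krt5 was listed there in proliferative cells only, with 45 reads. Over all entries the median depth in SCC2 was 19 in quiescent and 33 in proliferative cells. No entry has under 10 reads, and these medians cover different sites, 95 entries in quiescent and 411 in proliferative cells. They therefore do not give the difference in depth between the 2 libraries. The immune gene H2-Ab1 had reads at a mutated site as well, with 206 in SCC1 quiescent and 92 in SCC1 proliferative cells. In SCC2 it had 47 and 71, and H2-Eb1 had 26 in each SCC1 library. H2-Aa, on the same immune list, went the other way. It was listed in SCC1 proliferative cells only, at sites with 16, 15 and 27 reads.

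The promoters of both genes are shown first, because each lies wholly within a merged ATAC peak and they differ in composition. The sequences are from RefSeq, build GRCm38.p6, plus strand. The promoters cover bases before the annotated gene, and a short stretch over the first Tfrc start is shown for the motifs that lie there. Capitals mark a match to any of 8 motifs searched on both strands.
Tfrc promoter (chr16:32608646-32608895): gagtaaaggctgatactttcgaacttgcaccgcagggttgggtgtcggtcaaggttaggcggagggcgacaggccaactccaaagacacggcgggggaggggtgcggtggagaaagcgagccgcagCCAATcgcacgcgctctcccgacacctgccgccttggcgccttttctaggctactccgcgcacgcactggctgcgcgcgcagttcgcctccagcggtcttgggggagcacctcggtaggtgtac
Tfrc first start (chr16:32608889-32608918): ggtgtACGTGcggaaggaagTGACGTagat
Cp promoter (chr3:19956804-19956932): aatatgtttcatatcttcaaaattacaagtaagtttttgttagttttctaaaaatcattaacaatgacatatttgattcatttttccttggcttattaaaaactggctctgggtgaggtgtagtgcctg

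The Tfrc window of 300 bases around its first start, from 250 before to 50 after, was 66.0% G and C and held 30 CpG dinucleotides. Of 32851 such windows in the reference, 83.8% had a lower G and C content and 88.3% fewer CpGs. For Cp the same measures were 38.3% and 2 CpGs, with 7.45% of windows lower in G and C and 14.1% lower in CpGs. The Tfrc promoter is thus rich in CpG and that of Cp poor, against window medians of 52.7% and 7. The motif ACGTG, the core bound by hypoxia-inducible factors, lay across the first Tfrc start and occurs in 19.6% of all windows. TGACGT, a part of the cyclic AMP response element, began 13 bases after that start and occurs in 7.51% of windows. CCAAT began 124 bases before it and occurs in 37.4%. The other motifs were CACGTG (an E-box, which contains ACGTG; 7.15% of windows), TGACTCA (AP-1; 5.20%), CAGAC (a Smad element; 49.6%), GGGCGG (a GC box; 35.7%) and GGCGGGAA (E2F; 2.19%), and none of these 5 was in the first Tfrc window. The first Cp window held none of the 8. The window of the second annotated Tfrc start, which overlaps the first, added 2 GC boxes, and that of Cp held 1 CCAAT. A match is a string of letters and no evidence of binding.

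Tfrc RNA was lower in both CD71lo populations of both tumours. Against proliferative cells of the same tumour, the authors' deposited table puts Tfrc of quiescent cells at -1.72 (SCC1) and -1.55 (SCC2) on the log2 scale, which is 3.29-fold and 2.93-fold lower. The authors' deposited table puts double negative cells at -1.63 (SCC1) and -2.02 (SCC2), or 3.10-fold and 4.06-fold lower. All 4 ratios thus lay between -1.55 and -2.02, and the spread between tumours was small beside the ratios themselves. Between the 2 CD71lo populations, the authors' deposited table has Tfrc at -0.12 (SCC1) and 0.45 (SCC2), so the tumours had opposite signs and the RNA of the sorting marker gave no shared order of quiescent and double negative cells.

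Many genes of the table were lower as well, and Tfrc was not at the extreme. A ratio below 0 in both tumours was shared by 52.3% of the 1609 genes when quiescent were set against proliferative cells, and by 50.9% between double negative and proliferative cells. In the first of these, 18.4% of genes in SCC1 and 14.8% in SCC2 had a lower ratio than Tfrc. For double negative cells those shares were 15.8% and 14.7%. Over all genes of the authors' deposited table, quiescent against proliferative cells had a median ratio of -0.61 (SCC1) and -0.49 (SCC2). With that median taken off, Tfrc stood at -1.11 and -1.06 there, and with the same step at -1.28 and -1.68 in double negative cells. In quiescent against double negative cells this step gave 0.11 and 0.32, so that the sign in SCC1 turned. The table holds genes the authors selected, by its name as differentially expressed, so its median and shares are not those of all expressed genes.

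Cp RNA went the other way, and its ratios were far larger. For Cp in quiescent against proliferative cells the authors' deposited table gives 2.89 (SCC1) and 5.03 (SCC2), or 7.40-fold and 32.6-fold higher. For double negative cells the authors' deposited table gives 3.44 (SCC1) and 5.85 (SCC2), or 10.9-fold and 57.7-fold higher. The direction was shared by the tumours, while the size in SCC2 was above that in SCC1 by over 2 on the log2 scale in both comparisons. Ratios above 0 in both tumours were found for 35.8% of genes in the first comparison and 42.6% in the second. Only 21 genes in SCC1 and 34 in SCC2 had a higher ratio than Cp between quiescent and proliferative cells. Between double negative and proliferative cells those numbers were 29 and 16.

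Set against a size of at least 1 on the log2 scale in both tumours, both genes passed in both comparisons with proliferative cells. For quiescent cells 34.6% of all genes did so, 11.3% higher and 23.3% lower. For double negative cells it was 40.8%, with 15.5% higher and 25.2% lower. Neither gene reached that size between the CD71lo populations, where 3.6% of all genes did, 1.31% higher and 2.3% lower.

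Between the 2 CD71lo populations, the quiescent cells had less Cp RNA in both tumours, with -0.59 (SCC1) and -0.84 (SCC2) per the authors' deposited table. These are 1.51-fold and 1.79-fold. A ratio below 0 in both tumours was found for 30.0% of all genes in this comparison, and one of the same sign for 46.4%. With the median of all genes taken off, the values were -0.36 and -0.98. The highest Cp level of the 3 populations was therefore in the double negative cells of each tumour, and the lowest in CD71hi cells. These comparisons share libraries and are not independent of one another.

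**Figure D1:**
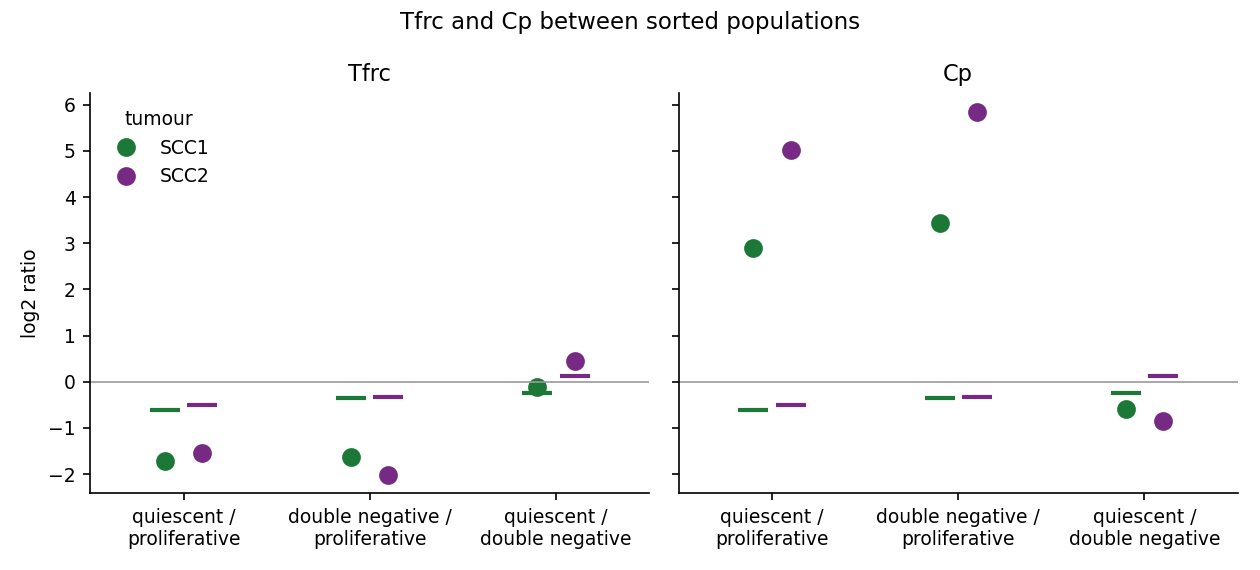
Log2 ratios of Tfrc and Cp (vertical axis) for each pair of sorted populations (horizontal axis) in tumours SCC1 and SCC2. Points are the deposited ratios and short bars the median of all 1609 genes in the same column. Tfrc lies between -1.55 and -2.02 in the comparisons with proliferative cells and Cp between 2.89 and 5.85.

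The 3 ratios of a tumour come from 3 libraries, so any of them can be rebuilt from the other 2. For Tfrc the rebuilt ratio of quiescent to proliferative cells was -1.76 in SCC1 and -1.57 in SCC2. For Cp it was 2.85 and 5.01. The rebuilt value differed from the deposited one by -0.04 in SCC1 and by -0.02 in SCC2 for both genes, close to the medians over all genes of -0.04 and -0.03. A difference within 0.1 of that median held for 98.9% of genes in SCC1 and 98.3% in SCC2.

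The genes whose ratios lay nearest to those of Tfrc by Euclidean distance over the 6 columns were Mcm8, a helicase of DNA repair, at a distance of 0.22, BC055324 at 0.32, Cenpl, a kinetochore protein, at 0.38, Tipin, which protects replication forks, at 0.43, and Cdt1, which licenses replication origins, at 0.44. The median distance over all genes was 4.47. Mcm8 matched Tfrc closely, with -1.73 and -1.57 between quiescent and proliferative cells and -1.68 and -2.18 between double negative and proliferative cells in the authors' deposited table, SCC1 first. Cdt1 stood at -1.47 and -1.30, and at -1.45 and -1.88, in the authors' deposited table. By Pearson's r, which ignores size, Mcm8 and Cdt1 led again (both at 1.00), followed by Haus4, a spindle protein, also at 1.00. The 6 columns come from 6 libraries and are tied to one another, so such values of r are common.

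No gene lay as near to Cp. The nearest were Fmo1, a flavin monooxygenase, at 1.12, the secreted protein gene C1qtnf3 at 1.98, Slitrk5 at 2.22, Timp3, an inhibitor of matrix proteases, at 2.37, and Odam, a secreted epithelial protein, at 2.84, against a median of 10.2. Fmo1 had 2.45 and 5.33 between quiescent and proliferative cells in the authors' deposited table, and Timp3 1.61 and 4.09. In quiescent against double negative cells the authors' deposited table has Timp3 at -2.08 and -0.85, on the same side as Cp. By Pearson's r the nearest were Rnase4, Rdh10, which makes retinal from retinol, and D4Wsu53e, each with smaller ratios. Rnase4 stood at 0.53 and 1.03 between quiescent and proliferative cells in the authors' deposited table. Tfrc and Cp themselves lay 12.4 apart.

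**Figure D2:**
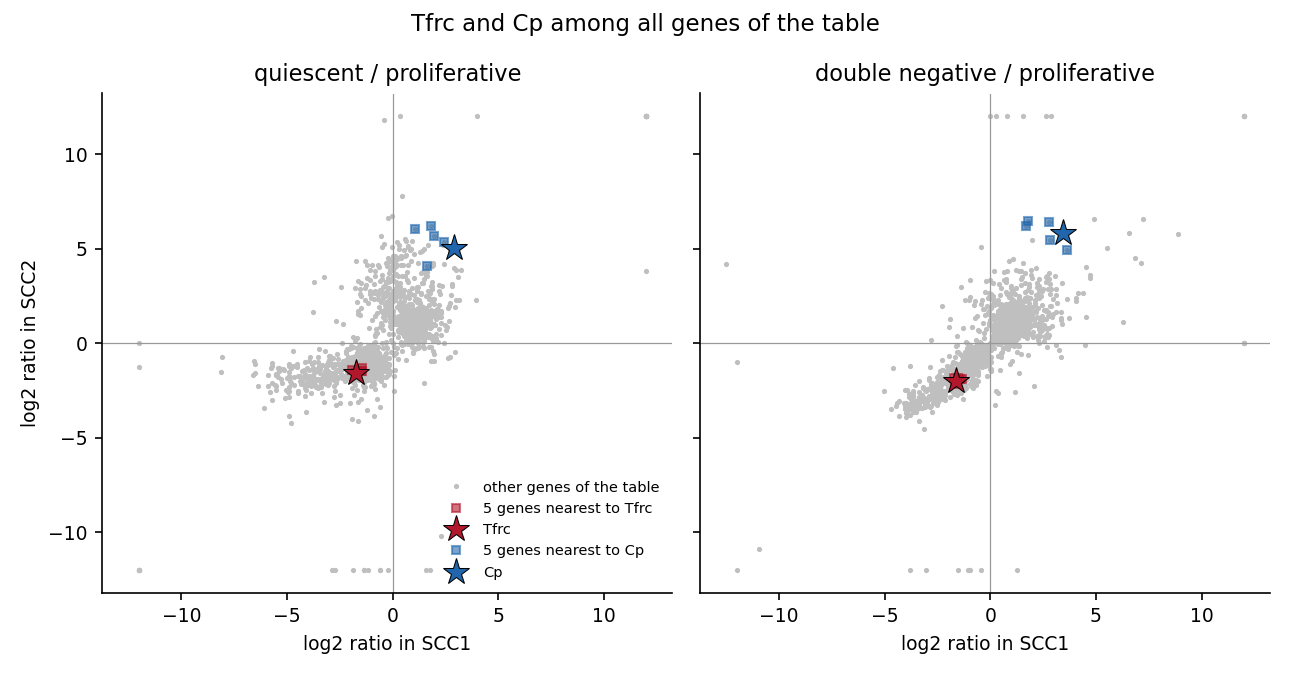
Log2 ratios in SCC1 (horizontal axis) and SCC2 (vertical axis) for all 1609 genes, for quiescent and for double negative cells against proliferative cells. Stars are Tfrc and Cp and squares the 5 genes nearest to each. Tfrc sits within the mass of lower genes and Cp at the edge of the higher ones.

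Of 68 genes listed for iron uptake, export, storage, regulation, and mitochondrial iron and haem, 5 had a ratio, 3 of these besides Tfrc and Cp. All 3 had the same sign in both tumours in both comparisons with proliferative cells, 2 lower and 1 higher. For scale, 88.1% of all genes had the same sign between quiescent and proliferative cells and 93.5% between double negative and proliferative cells. The list was drawn up with earlier results of these data known, and the table has no ratio for the others, among them ferroportin (Slc40a1), the ferritins Fth1 and Ftl1, and hepcidin (Hamp).

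The lower genes were Steap1 and Steap2, members of the family of endosomal and membrane metalloreductases that turn ferric into ferrous iron. For Steap1 the authors' deposited table gives -1.28 and -1.41 for quiescent cells, SCC1 first, and -1.17 and -1.19 for double negative cells. Steap2 follows in the authors' deposited table with -0.56 and -1.17, and with -0.56 and -0.53.

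Lcn2, a secreted protein that binds bacterial iron carriers, was the higher gene. The authors' deposited table gives 1.00 (SCC1) and 4.70 (SCC2) for quiescent cells and 4.54 and 4.04 for double negative cells. Between the CD71lo populations the authors' deposited table has Lcn2 at -3.58 (SCC1) and 0.63 (SCC2), so the tumours differed in sign where Cp did not. The median of the 3 genes other than Tfrc and Cp was -0.56 in SCC1 and -1.17 in SCC2 between quiescent and proliferative cells, next to -0.61 and -0.49 for all genes.

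DNA enzymes on a second list, most of which carry iron or an iron-sulphur cluster or belong to a complex with such a subunit, were lower with Tfrc. The table covers 7 of the 20 listed, and all 7 were lower in both CD71lo populations of both tumours, next to 52.3% and 50.9% of all genes. Rrm2, the iron-bearing subunit of ribonucleotide reductase, has -4.07 (SCC1) and -2.04 (SCC2) for quiescent cells by the authors' deposited table. Its partner Rrm1, which holds the catalytic site, was at -2.45 and -1.44, and the helicase gene Brip1 at -2.64 and -1.43, by the authors' deposited table. The primase subunit Prim2 was at -1.46 and -0.77 and the polymerases Pole, Pold1 and Pola1 at -3.54, -1.62 and -2.66 in SCC1 in the authors' deposited table. In SCC1 the Tfrc ratio of -1.72 was smaller in size than 5 of these 7, while in SCC2 its -1.55 lay within their range of -0.77 to -2.04.

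Cp also belongs to the acute phase and copper lists. Of 6 acute phase genes with a ratio, of 26 listed, all 6, Cp among them, were higher in double negative cells of both tumours, next to 42.6% of all genes, and 3 in quiescent cells of both, next to 35.8%. Haptoglobin (Hp), which binds free haemoglobin, stood at 2.79 and 3.73 for double negative cells, and at -0.066 in SCC1 and 2.26 in SCC2 for quiescent cells, in the authors' deposited table. Serum amyloid gene Saa3 had 2.87 and 1.98, and -0.86 and 3.54, in the authors' deposited table. Cfb, a complement factor, had 1.07 and 0.32, and -1.79 and 2.94, in the authors' deposited table, and Il1b, an inflammatory cytokine, 2.24 and 0.18, and 0.16 and 4.07. In quiescent cells of SCC1, Cp at 2.89 was thus the highest of the 6, ahead of Lcn2 at 1.00, while in SCC2 it was followed by Lcn2 at 4.70. Of the 26 copper genes, 3 had a ratio: Cp, the extracellular superoxide dismutase Sod3 and the collagen cross-linking enzyme Loxl1. All 3, Cp among them, were higher in both comparisons with proliferative cells, next to 35.8% of all genes for quiescent and 42.6% for double negative cells. Sod3 stood at 1.84 and 4.10 for quiescent cells, and at 2.29 and 3.41 for double negative cells, in the authors' deposited table.

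**Figure D3:**
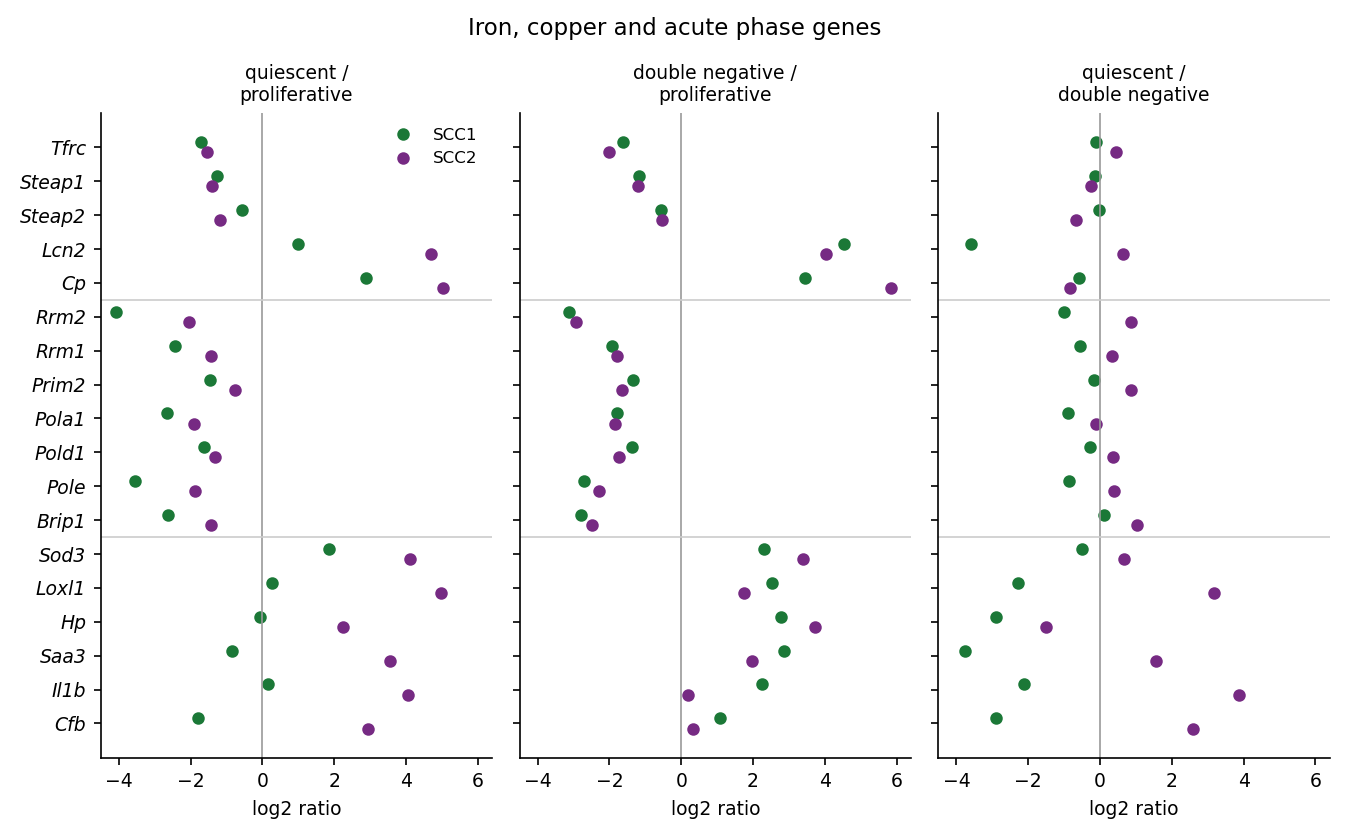
Log2 ratios (horizontal axis) of the iron handling genes (top block), DNA enzymes of the iron-dependent list (middle) and other acute phase and copper genes (bottom) for each pair of populations, with 1 point per tumour. Steap1 and Steap2 lie on the side of Tfrc in the comparisons with proliferative cells, and Lcn2 on the side of Cp.

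Markers of other cell types were higher in some of the populations in which Cp was high. Of 12 fibroblast genes with a ratio, of 18 listed, 8 were higher in quiescent cells in both tumours when set against proliferative cells, and 0 were lower, next to 35.8% of all genes higher in both. By the authors' deposited table their median was 0.08 in SCC1 (range -0.44 to 2.75) and 4.35 in SCC2 (range 2.54 to 5.38). In double negative cells 11 of the 12 were higher in both, next to 42.6% of all genes, and the authors' deposited table gives medians of 2.69 and 1.34. In SCC1 quiescent cells Cp stood above all 12 fibroblast genes, the nearest being decorin (Dcn) at 2.75 in the authors' deposited table, whereas in SCC2 the fibroblast genes Thy1 at 5.38 and Col6a2 at 5.22 stood above it. In double negative cells of SCC1 Cp at 3.44 stood below Dcn at 4.39 and Thy1 at 3.61 in the authors' deposited table. In double negative cells of SCC2 its 5.85 in the authors' deposited table stood above their range of -0.73 to 2.65. Between quiescent and double negative cells the authors' deposited table gives fibroblast medians of -2.72 (SCC1) and 3.14 (SCC2), while Cp was lower in both tumours.

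The authors' deposited table covers 7 of 23 immune genes, with medians of -0.30 (SCC1) and 2.87 (SCC2) for quiescent cells and 1.16 and 0.95 for double negative cells. The endothelial genes Cldn5, Egfl7 and Eng were higher in double negative cells of both tumours, next to 42.6% of all genes, with 6.84 and 4.53 for Cldn5, 3.34 and 1.63 for Egfl7 and 2.01 and 1.26 for Eng in the authors' deposited table. In quiescent against proliferative cells the authors' deposited table has Cldn5 at -0.83 and 2.75 and Egfl7 at -0.61 and 0.88, while Eng, at 0.72 in SCC1, was the only one of the 3 above 0 in both tumours. In quiescent against double negative cells Cldn5 had -7.70 and -1.81 and Egfl7 -4.00 and -0.79 per the authors' deposited table, the sign of Cp, while Eng had -1.32 and 0.58. Of the epithelial list only Epcam and Krt6b have ratios, and the authors' deposited table gives Epcam -3.21 and -0.40 for quiescent cells and -1.93 and -0.68 for double negative cells. Krt6b stands in the authors' deposited table at -3.71 and 3.22 for quiescent cells, with opposite signs, and at -1.54 and -0.47 for double negative cells. None of 13 erythroid genes, whose cells carry much CD71, is in the table. The table gives no levels, so it does not show which markers were near 0, and the part of other cell types in the Cp ratios was not tested.

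At the Tfrc gene, on chromosome 16 from 32608896 to 32632794 of mm10, the merged peak list held 2 ATAC peaks in the gene body and the 10 kb either side. The first, 600 bases wide from 32608601 to 32609200, covered both annotated starts. The second, 300 bases wide, lay 7.26 kb past the end of the gene. At Cp, on chromosome 3 from 19956933 to 20009750, there were 3 peaks. The middle one, 700 bases wide from 19956701 to 19957400, covered both of its annotated starts. The others, each 600 bases wide, were centred 3.00 kb before and 3.85 kb after the first start. The median over 21887 protein-coding genes was 2 peaks, and 47.0% of them had fewer than Tfrc and 64.6% fewer than Cp. Over protein-coding genes of the table the median was 3. Per 100 kb of window Tfrc had 4.56 peaks and Cp 4.12. The medians on that scale were 3.44 over protein-coding genes and 5.52 over those of the table. A peak over an annotated start was present for 77.7% of 1185 protein-coding genes of the table with a listed start, and for 48.6% of all 17492. The list merges peaks of several libraries without a score, so accessibility was not compared between populations, although RNA of the 2 genes differed between them in opposite directions.

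By its name the list of Smad2/3 sites keeps only those in which a motif was found. Other places bound by Smad2/3 would be missing from it, and from the counts and shares given here. It held 6143 sites in all. One lay from 32641648 to 32641848, 8.85 kb past the end of Tfrc and 32.9 kb after its start. It was 1298 bases from the nearest ATAC peak, outside any, and within 10 kb of Tnk2, a kinase gene, as well. A second lay inside Tnk2, 24.0 kb past the end of Tfrc. At Cp none was listed within 50 kb, and the nearest listed site was 390 kb from its start. A site within 10 kb was listed for 15.4% of protein-coding genes and for 21.5% of protein-coding genes of the table. Of the 68 iron genes 16 had one, or 23.5%. Cd44, a hyaluronan receptor also linked to iron uptake, had 4 and Lrp1, a receptor for haem-hemopexin, had 3. Single sites lay at 14 others, among them Tfrc, the metalloreductase gene Steap3, the ferritins Fth1 and Ftl1, haem oxygenase (Hmox1), Bmp6 and Fbxl5. These sites were mapped in cultured cells treated with TGFβ1, not in the sorted populations, and the 2 data types share no sample.

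**Figure D4:**
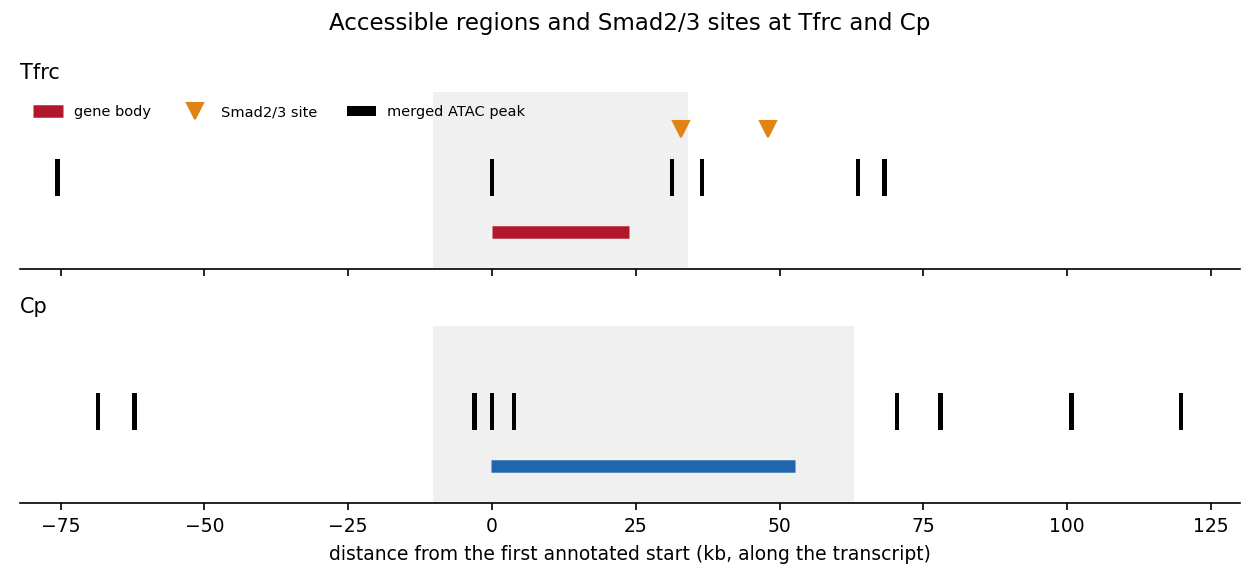
Merged ATAC peaks (black bars, drawn at least 0.8 kb wide) and Smad2/3 sites (triangles) around Tfrc and Cp, by distance from the first annotated start in kb, with gene bodies as coloured bars and the 10 kb flanks shaded. Each gene has a peak over its start, and the nearest listed Smad2/3 site lies past the end of Tfrc, while none is shown for Cp.

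In copy number, Tfrc lay in a gain in both tumours. In SCC1 the authors listed 3 copies of a 2.7 Mb region, and in SCC2 4 copies of a smaller one of 1.5 Mb, which lies within the first. Its edges were 0.71 Mb before and 0.77 Mb after Tfrc. Cp lay in a 13.8 Mb gain with 3 copies in SCC1. In SCC2 the list had no call over Cp, and the nearest gain, also with 3 copies, ended 2.06 Mb before it. Gains are common here: 42.9% of protein-coding genes lay in one in SCC1 and 40.8% in SCC2. A gain of 4 copies was listed for 22 of 125 gained regions in SCC2. Copy number was listed per tumour, matched here to inputs from treated cultured cells, and not per sorted population. Its part in the ratios was not tested.

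Within 1 Mb of Tfrc, 4 other genes had ratios, Senp5, Pak2, Rnf168 and Snx4. Their ratios of quiescent to proliferative cells ran from -0.12 to -0.51 in SCC1 and from -1.16 to -1.48 in SCC2 in the authors' deposited table. All 4 were below 0 in both tumours, as were 52.3% of all genes, and smaller in size than Tfrc. For double negative cells they ran from -0.35 to -0.59 in SCC1 and from -0.52 to -0.99 in SCC2 in the authors' deposited table, next to -1.63 and -2.02 for Tfrc. No gene of the table other than Cp lay within 1 Mb of Cp.

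Tfrc has an entry in the authors' table of mutations seen in RNA, listed in both tumours. Whether the change arose in the tumours, came from a shared origin of them or was inherited with the strain was not tested. The change A1363T of the coding sequence in exon 12 of NM_011638, counted from the first base of the start codon, gives S455C in the protein, and lies at position 32623092 of chromosome 16. In SCC1 it was in 8 of 11 reads of proliferative cells, or 72.7% (exact 95% binomial interval 39.0 to 94.0), and in 8 of 10 reads of quiescent cells, or 80% (44.4 to 97.5). Proliferative cells of SCC2 had it in 20 of 21 reads, or 95.2% (76.2 to 99.9). The intervals overlap. They allow for counting error alone, because reads copied by PCR do not stand for separate molecules. The SCC1 libraries did not differ detectably at this depth (two-sided Fisher exact test of the reads of 2 libraries, p = 1). The read counts of the alternative base were taken from the depth and the rounded percent, which fit only these whole numbers. For quiescent cells of SCC2 the mutation table has 95 entries in all, against 411 to 498 for the other libraries, and Tfrc is not among them.

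The share of mutant reads at Tfrc was above the median of each library, which was 46.0%, 44.0% and 47.0% in the same order. It was higher than 81.3%, 84.6% and 90.3% of the entries. Listing in both tumours was not unusual: of 656 distinct mutations 344 were, which is 61.0% of those in SCC1 and 78.9% of those in SCC2, and 227 had the same pattern of libraries as Tfrc. A change between A and T, as here, made up 229 of the 656. Cp had no entry, and of the 68 iron genes Tfrc alone had one. The share of all genes with an entry was not counted, so this does not set Tfrc or the iron genes apart.

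Reads at mutated sites gave a sparse view of expression in SCC1, which is not independent because they come from the same libraries. For 36 genes of the expression table with a site listed in both SCC1 libraries, the log2 ratio of reads in quiescent to proliferative cells followed the deposited ratio of the same libraries (Pearson's r = 0.86, Spearman's rho = 0.85, across genes, which are not independent). The site ratios are of raw reads, without scaling for library depth, and the median of site ratio minus deposited ratio was -0.23. The iron-dependent list's Rrm1 had -2.40 by site reads and -2.45 in the authors' deposited table. Tfrc, with 10 and 11 reads, had -0.14 (exact 95% interval -1.53 to 1.24, counting error only) next to -1.72 in the authors' deposited table. This was the largest difference in that direction of the 36, with the next at 0.68 against 1.58 for Tfrc, and only Btg2, an antiproliferative gene, differed by more in the other direction, by -1.66. No entry of the table has under 10 reads, and the quiescent depth of Tfrc is at that limit. With 11 reads in proliferative cells, a site ratio below -0.14 could not have been listed. The interval does not allow for this. The gap to -1.72 and the place of Tfrc among the 36 genes therefore say nothing about Tfrc RNA.

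**Figure D5:**
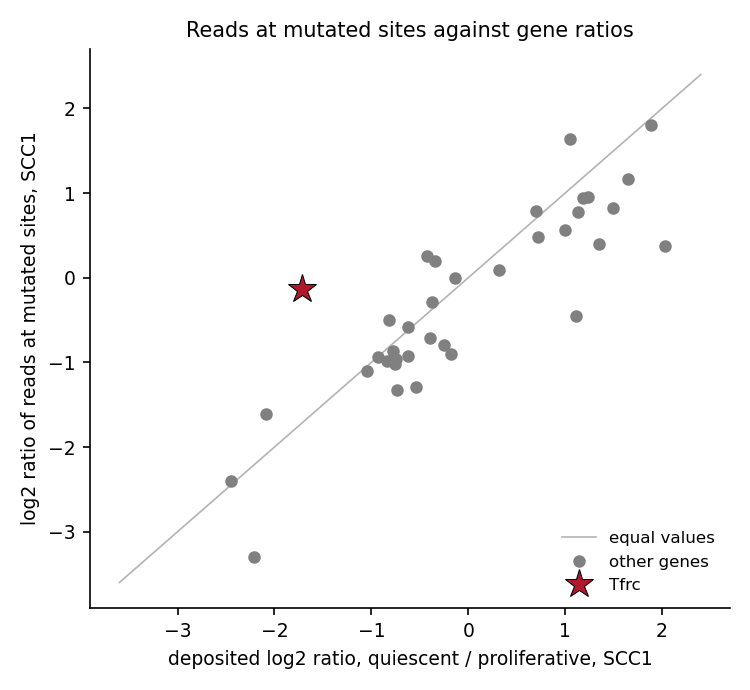
Log2 ratio of reads at mutated sites in SCC1 quiescent and proliferative cells (vertical axis) against the deposited log2 ratio of the gene (horizontal axis) for 36 genes. The line marks equal values, and Tfrc, at -0.14 and -1.72, lies above it by more than any other gene. The quiescent depth of Tfrc is the lowest that is listed, so a lower site ratio could not be seen beside its proliferative depth.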

How the data were processed

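The RNA table holds log2 ratios deposited by the authors, made with TopHat2 2.0.9, Cufflinks 2.2.0 and Cuffdiff 2.2.0 per the submitters' processing notes. Those notes list mm10, and mm9 too for double negative RNA. By its name the RNA table holds differentially expressed genes. The rule by which they were called, and the callers of peaks, sites, copy number and mutations, were not stated. Bowtie and Picard 1.88 served the ChIP and input libraries, and Bowtie the ATAC libraries, per the submitters' processing notes. The deposited mutation table gives read counts and the percent of alternative reads as a whole percent. The copy number table gives whole copies and a p-value per region, per the file headers.

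Members and gene lists were chosen with earlier results of these data known. Higher or lower means the same sign in SCC1 and SCC2. Named genes were the members, the listed genes with a ratio, the 5 nearest by distance and 3 by Pearson's r, genes of the table within 1 Mb, and genes at the named peaks and sites. Genes named only for a Smad2/3 site were chosen after values were seen, as were Btg2 and the comparison of site reads. GRCm38.p6 (mm10) coordinates matched 1600 of 1609 genes. Some listed genes are not reported here and are left out of the list's counts. Overlaps needed 1 base. Scripts ran on scipy 1.17.1, pandas 2.3.3, numpy 2.4.6, matplotlib 3.10.9 and Python 3.11.15. The counting functions were tested on simulated data. As alternatives, ratios were rebuilt and recentred, each tumour left out, thresholds and windows varied, and likeness measured otherwise.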

Additional observations from a re-analysis of the deposited data

Results flagged for a closer look

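Among 18 iron, copper and acute phase genes with a ratio, values of opposite sign in the 2 tumours, with 1 value each, were flagged. The difference between tumours was not tested for any of them. All ratios here are from the authors' deposited table, SCC1 first. In the comparison of quiescent and double negative cells only 46.4% of all genes had the same sign in both tumours, so opposite signs were common there. Of the 18 genes this held for 12: Tfrc (-0.12 and 0.45), Lcn2 (-3.58 and 0.63), Rrm2 (-0.99 and 0.85), Rrm1 (-0.56 and 0.35), Prim2 (-0.17 and 0.86), Pold1 (-0.29 and 0.37), Pole (-0.87 and 0.39), Sod3 (-0.49 and 0.66), Loxl1 (-2.29 and 3.18), Saa3 (-3.76 and 1.55), Il1b (-2.12 and 3.87) and Cfb (-2.90 and 2.59). Between quiescent and proliferative cells, where 88.1% of all genes had the same sign, it held for 3: Hp (-0.066 and 2.26), Saa3 (-0.86 and 3.54) and Cfb (-1.79 and 2.94). Cp had the same sign in both tumours in each of the 3 comparisons.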

How the results depend on the processing

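No paired analysis was possible because the deposited values are already differences within a tumour, so there is no unpaired fit to set beside them, and the 2 values per gene were not tested. Leaving out a tumour gives the other tumour's own ratio, which is no check of stability. For Tfrc between quiescent and double negative cells the mean of 0.16 then became -0.12 or 0.45, so the sign of the deposited ratio depends on the tumour. With the median of all genes subtracted the ratio was 0.11 in SCC1 and 0.32 in SCC2, the same sign in both. Means of the 2 tumours for Tfrc moved from -1.63 to -1.08 (quiescent against proliferative) and from -1.83 to -1.48 (double negative against proliferative) when the median of all genes was subtracted. Asking for ratios of at least 1 in size in both tumours left 3 iron genes of 5 between quiescent and proliferative cells and 0 of 3 between quiescent and double negative cells, and 557 of 1417, 656 of 1504 and 58 of 746 of all genes in the order quiescent and double negative against proliferative, then quiescent against double negative cells. With 1 tumour alone the last count was 1606 to 1608 for all genes and 5 for iron genes, since a sign in 1 tumour calls nearly every gene. For all genes the split of 263 higher and 483 lower then became 467 and 1141 in SCC1, and 919 and 687 in SCC2. ATAC peaks at Tfrc were 1 in the gene body and 5 with 50 kb either side, Smad2/3 sites there 0 and 2, and peaks at Cp 6 with 50 kb. Of the 5 genes nearest to Tfrc, 2 were among the nearest 5 by Pearson's r, and 1 to 2 with 1 tumour alone. For Cp these were 0 by Pearson's r, and 1 to 3.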
